A study of Rattus norvegicus with 8 samples.

Results

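Adipocyte genes were followed in the Achilles tendon of the rat, 12 hours after a single run on a treadmill and at rest. The set held 10 genes, taken by name from the gene annotation of the expression table: Adipoq, Lep, Plin1, Fabp4, Cidec, Lpl, Pparg, Lipe, Pnpla2 and Cfd. All 10 were found once among the 32883 genes listed, and 9 of them passed the filter on low counts and were tested. Polyadenylated RNA of whole Achilles tendons was sequenced from 8 wild-type male Sprague-Dawley rats of 8 to 10 weeks. The 12 h p.r. (post-running) group held 4 rats that ran uphill for 1 hour and were killed 12 hours later, and the naïve control (NC) group held 4 rats that kept their normal cage activity and were killed at the same time.

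White adipocytes store triglyceride in 1 large lipid droplet and secrete hormones into the blood. The nuclear receptor PPARγ, with C/EBP factors, switches on the genes for lipid uptake, droplet coating and hormone secretion as a precursor becomes an adipocyte. Fat lies around the Achilles tendon, in the pad in front of it and in the loose sheath that carries its vessels. In whole-tissue RNA such as this, fewer adipocytes and less RNA per adipocyte cannot be told apart.

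Promoter windows were available from RefSeq on the GRCr8 assembly for 7 of the 10 genes, each with 250 bases before and 50 bases after the annotated start. Those of 4 genes are shown, the hormones Adipoq and Lep and the droplet proteins Plin1 and Cidec. Their windows hold matches to the motifs searched, as do both windows of Pparg, which are not shown. Capitals mark exact matches, on either strand, to the C/EBP motif TTGCNNAA or to CCAAT. The windows are Adipoq at chr11:91240120-91240419 on the minus strand, Lep at chr4:58626288-58626587 on the plus strand, Plin1 at chr1:143086099-143086398 on the minus strand and Cidec at chr4:148137066-148137365 on the minus strand.
Adipoq: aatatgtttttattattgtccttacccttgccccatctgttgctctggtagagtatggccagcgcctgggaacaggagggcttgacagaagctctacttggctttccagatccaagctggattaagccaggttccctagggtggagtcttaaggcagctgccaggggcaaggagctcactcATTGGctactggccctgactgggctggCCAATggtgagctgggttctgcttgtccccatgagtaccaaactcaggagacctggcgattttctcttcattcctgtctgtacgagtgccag
Lep: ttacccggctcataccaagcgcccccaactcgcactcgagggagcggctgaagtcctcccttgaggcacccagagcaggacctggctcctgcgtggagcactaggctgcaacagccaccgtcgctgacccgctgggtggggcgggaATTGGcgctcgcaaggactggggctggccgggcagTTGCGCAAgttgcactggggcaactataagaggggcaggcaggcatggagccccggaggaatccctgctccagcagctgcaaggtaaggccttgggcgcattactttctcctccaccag
Plin1: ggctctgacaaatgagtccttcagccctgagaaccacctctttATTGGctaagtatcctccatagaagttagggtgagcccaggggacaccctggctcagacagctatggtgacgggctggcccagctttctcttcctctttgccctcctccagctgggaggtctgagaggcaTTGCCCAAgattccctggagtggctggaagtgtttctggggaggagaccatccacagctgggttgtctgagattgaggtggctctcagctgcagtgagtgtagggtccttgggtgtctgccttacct
Cidec: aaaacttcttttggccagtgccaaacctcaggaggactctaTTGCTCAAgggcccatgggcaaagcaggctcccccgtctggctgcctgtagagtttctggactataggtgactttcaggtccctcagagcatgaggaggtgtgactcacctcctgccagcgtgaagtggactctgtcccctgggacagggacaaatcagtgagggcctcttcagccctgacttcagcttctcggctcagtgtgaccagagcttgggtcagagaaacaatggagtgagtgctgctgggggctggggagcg

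The C/EBP letters were present in 10.6% of all 33469 promoter windows and CCAAT in 37.5% of them. In the set, the C/EBP letters occurred in the windows of Lep, Plin1, Cidec and 1 of the 2 windows of Pparg, and CCAAT in those of Adipoq, Lep, Plin1 and the same window of Pparg. The C/EBP match of Lep reads the same on both strands. The core site of PPAR, AGGTCA, was present in 16.2% of all windows and in none of the 8 windows of the set, and neither was its direct repeat with 1 spacer base, which was present in 0.0538%. The TATA letters TATAAA were present in 14.2% of all windows and in the set only in the other window of Pparg. These matches describe the letters of the windows.

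The deposited counts summed to between 7350509 and 12951397 per rat. The median was 8459357.5 at 12 h p.r. and 11866872.5 in NC rats, a ratio of 0.713, so depth differed between the groups. All 8 tenocyte markers passed the filter, Tnmd and Scx among them. Muscle transcripts differed widely between rats. The 9 markers found of a skeletal muscle list summed to between 1728 and 10774 counts per 1000000 reads (CPM) in NC rats. At 12 h p.r. they summed to between 2117 and 58807 CPM, with the highest sum in 12 h p.r. replicate 3. The 7 slow-muscle markers summed to between 902 and 2680.0 CPM in NC rats and to between 5.43 and 1554 CPM at 12 h p.r., and all 7 had a fold change below 0, none of them called. The summed level of 12 macrophage markers ranged from 727 to 2993 CPM at 12 h p.r. and from 1007 to 4306 CPM in NC rats.

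The adipocyte genes were strongly expressed in this tendon tissue. Together the 10 genes took between 0.398% and 0.965% of all counted reads of a rat. By FPKM, which corrects for gene length, Fabp4, the fatty acid carrier of the adipocyte cytosol, was the highest of the set at 3658 ± 1018 (SD, n = 8 rats) and ranked 18 among all listed genes. Cfd, the complement protease adipsin, followed at 1172 ± 407 FPKM, and Adipoq, which encodes the hormone adiponectin, at 708 ± 245 FPKM. Lpl, the lipoprotein lipase, was the fourth at 289 ± 119 FPKM. This order of the first 4 genes was the same in all 8 rats.

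The lower part of the order was less fixed. The lipid droplet proteins Cidec, at 149 ± 42.4 FPKM, and Plin1, at 146 ± 42.8 FPKM, did not differ beyond their spread, and Cidec was the higher of both in 5 rats. Lipe, the hormone-sensitive lipase, was at 67.9 ± 20.4 FPKM, Lep, which encodes leptin, at 42.9 ± 20.3 FPKM, and Pparg at 37.8 ± 12.5 FPKM. Lep was above Pparg in all 4 NC rats and below it in all 4 rats at 12 h p.r. The exact permutation p of their CPM ratio, adjusted over 36 pairs of the set, was 0.103. Of all pairs of genes tested, 5.24% had a ratio that separated the groups, a share not matched to the set in how closely genes vary together. Each gene overlapped with its neighbour in the order by mean FPKM in its range over rats, except Fabp4. The lowest rat of Fabp4, at 2376 FPKM, was above the highest rat of Cfd, at 1747 FPKM.

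**Figure D1:**
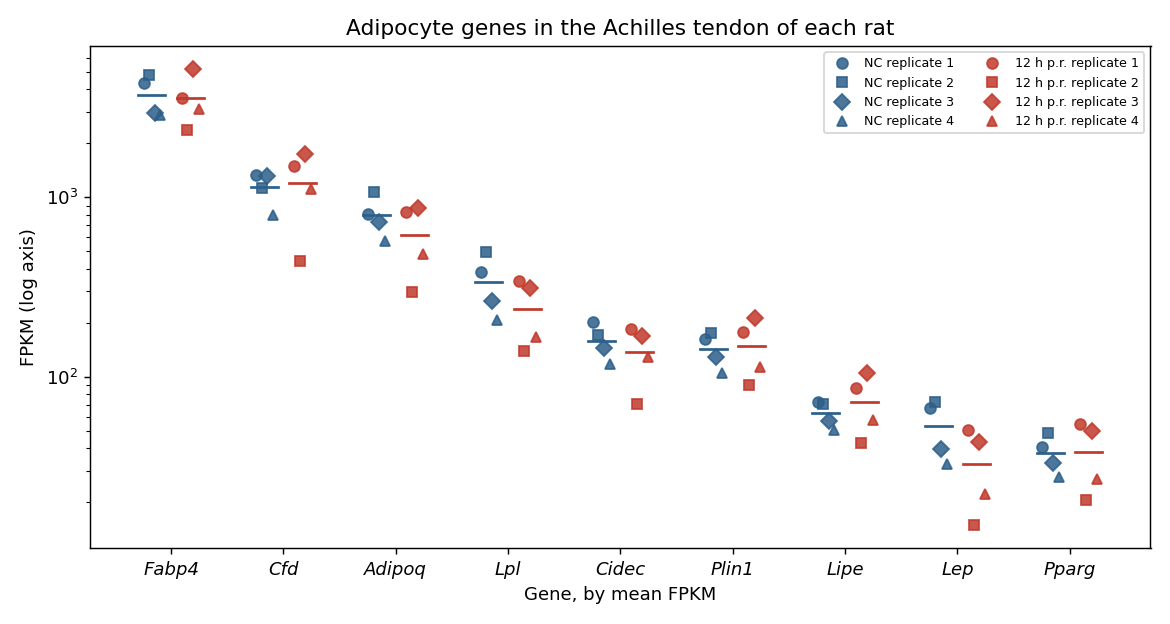
FPKM on a log axis for the 9 adipocyte genes that were tested, ordered by mean FPKM, with NC rats in blue, 12 h p.r. rats in red, 1 symbol per replicate number and a bar at each group mean. Fabp4 reaches from 2376 to 5206 FPKM and Pparg from 20.5 to 54.6 FPKM, and in every gene the points of both groups overlap.

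Pnpla2, which encodes the first lipase of triglyceride breakdown, was the exception. Its identifier had 2 reads in 12 h p.r. replicate 4 and was listed at 0 in the other 7 rats. At these depths a count of 0 allows up to 3 reads, or between 0.232 and 0.408 CPM of a rat's total count, for counting error only. Whether reads of Pnpla2 were assigned to another identifier was not tested. No fold change is given for it.

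The levels of these genes differed between rats of the same group. In 12 h p.r. replicate 2 each of the 9 tested genes had its lowest CPM of the 8 rats, and within the NC group each of the 9 was lowest in NC replicate 4. Relative to each gene's own mean over the 8 rats, the median of the 9 genes was -0.93 on the log2 scale in 12 h p.r. replicate 2 and -0.36 in NC replicate 4. It was 0.48 in 12 h p.r. replicate 3, 0.43 in NC replicate 2 and 0.38 in 12 h p.r. replicate 1. The library of 12 h p.r. replicate 2 also had the fewest counts of all 8, at 7350509. The next smallest, 12 h p.r. replicate 1 at 7584345 and NC replicate 2 at 8385779, had medians above 0. NC replicate 4 had 11008949 counts. The part of depth in these levels was not tested.

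The span between the highest and the lowest rat was not the same for each gene. It was widest for Lep, at 4.88-fold, followed by Cfd at 3.96-fold, Adipoq at 3.60-fold and Lpl at 3.53-fold. It was narrowest for Fabp4, at 2.19-fold, and for Plin1, at 2.35-fold. Among the NC rats alone the span was between 1.43-fold for Lipe and 2.38-fold for Lpl, and at 12 h p.r. between 2.19-fold for Fabp4 and 3.96-fold for Cfd.

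**Figure D2:**
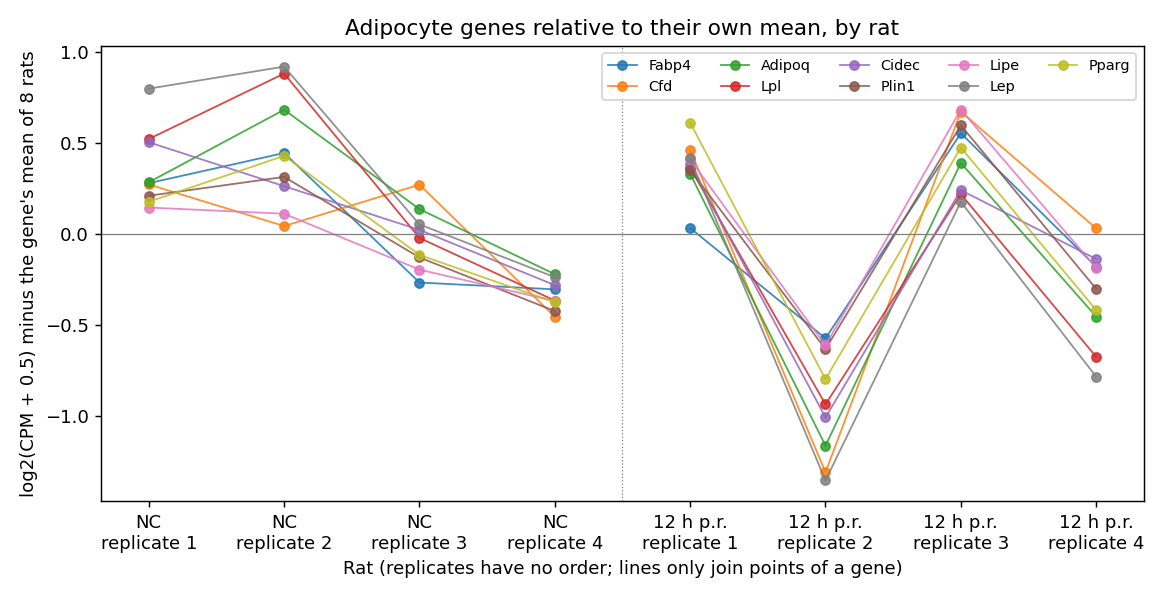
Deviation of log2(CPM + 0.5) from each gene's own mean over 8 rats, by rat, with 1 coloured line per gene that only joins its points within a group. All 9 genes lie below 0 in 12 h p.r. replicate 2, with a median of -0.93, and above 0 in 12 h p.r. replicates 1 and 3.

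The first comparison asked whether adipocyte genes were higher or lower 12 hours after the run than at rest. None of the 9 tested genes passed the threshold of an adjusted p under 0.05 in either direction in edgeR's quasi-likelihood test, where 0% of all 13937 genes tested were called higher at 12 h p.r. and 0.00718% lower. DESeq2 also called 0 of them, with 54 higher and 42 lower calls among the 14421 genes it gave an adjusted p. At an unadjusted p under 0.05, 0 of the 9 remained against 9.51% of all genes. In no gene of the set did the groups separate completely by CPM, which 6.07% of all genes did. The median log2 fold change of the 9 genes, as 12 h p.r. minus NC, was -0.06, beside 0.02 over all genes tested. It was below 0 for 5 of the 9 genes, and for 45.8% of all genes.

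Of the secreted products, Lep had the largest fold change of the set. Its CPM was 169, 49.2, 143 and 73.3 in 12 h p.r. replicates 1 to 4 and 221, 240.0, 131 and 107 in NC replicates 1 to 4. The 2 lowest values belonged to runners and the 2 highest to controls, while runners 1 and 3 lay among the controls. The log2 fold change was -0.69 ± 0.41 (SE), with an adjusted p of 0.631 in edgeR's test and an exact two-sided permutation p of 0.2, where 4 against 4 rats cannot go below 0.0286. Leptin signals the size of fat stores to the brain.

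Adipoq had a CPM of 1710.0, 606, 1782 and 992 in 12 h p.r. replicates 1 to 4 and of 1655, 2183, 1494 and 1166 in NC replicates 1 to 4. Runners 2 and 4 were below all controls, and runners 1 and 3 were above 3 of them. Its log2 fold change was -0.35 ± 0.34, with an adjusted p of 0.774 in edgeR's test. It was -0.12 without 12 h p.r. replicate 2, -0.18 without NC replicate 2, -0.53 without 12 h p.r. replicate 1 and -0.56 without 12 h p.r. replicate 3. Adiponectin is made almost only by adipocytes, which makes Adipoq the reference for the others. The mean level of Cfd was 1208 ± 572 CPM in runners (SD, n = 4) and 1147 ± 248 CPM in controls, with a log2 fold change of 0.07 ± 0.37.

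Of the genes that bring fatty acids into the cell, Lpl had a CPM of 1268, 515, 1147 and 617 in 12 h p.r. replicates 1 to 4 and of 1416, 1817, 971 and 765 in NC replicates 1 to 4. As for Adipoq, runners 2 and 4 were below all controls. The log2 fold change of Lpl was -0.49 ± 0.36, with an adjusted p of 0.705 in edgeR's test. It was -0.24 without NC replicate 2, -0.30 without 12 h p.r. replicate 2 and -0.71 without 12 h p.r. replicate 1. Lipoprotein lipase releases fatty acids from circulating triglyceride and is also made by muscle and macrophages. Fabp4 had means of 2398 ± 799 CPM at 12 h p.r. and 2498 ± 656 CPM in NC rats, and its log2 fold change was -0.06 ± 0.28. Capillary endothelium expresses Fabp4 as well.

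The genes of the lipid droplet and of lipid release lay on both sides of 0. Lipe had a CPM of 323, 159, 391 and 214 in 12 h p.r. replicates 1 to 4 and of 269, 263, 212 and 188 in NC replicates 1 to 4. Here runners 1 and 3 were above all controls and runner 2 below them. Its log2 fold change was 0.22 ± 0.27, with an adjusted p of 0.824 in edgeR's test.

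Plin1, the coat protein that guards the droplet against lipases, had a CPM of 540.2, 273, 640.1 and 343 in 12 h p.r. replicates 1 to 4 and of 489, 526, 387 and 315 in NC replicates 1 to 4. The runners spanned a wider range than the controls on both sides. Its log2 fold change was 0.07 ± 0.28. Cidec, which lets droplets fuse into a large one, had means of 329 ± 121 CPM at 12 h p.r. and 376 ± 86.2 CPM in NC rats, with a log2 fold change of -0.20 ± 0.29.

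Pparg, the regulator, had a CPM of 127, 47.3, 115 and 61.8 in 12 h p.r. replicates 1 to 4 and of 93.6, 112, 76.3 and 63.6 in NC replicates 1 to 4. Runners 1 and 3 were above all controls and runners 2 and 4 below all of them. The group means of 87.7 ± 39 and 86.3 ± 20.8 CPM were nearly the same, and the log2 fold change was 0.02 ± 0.32.

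**Figure D3:**
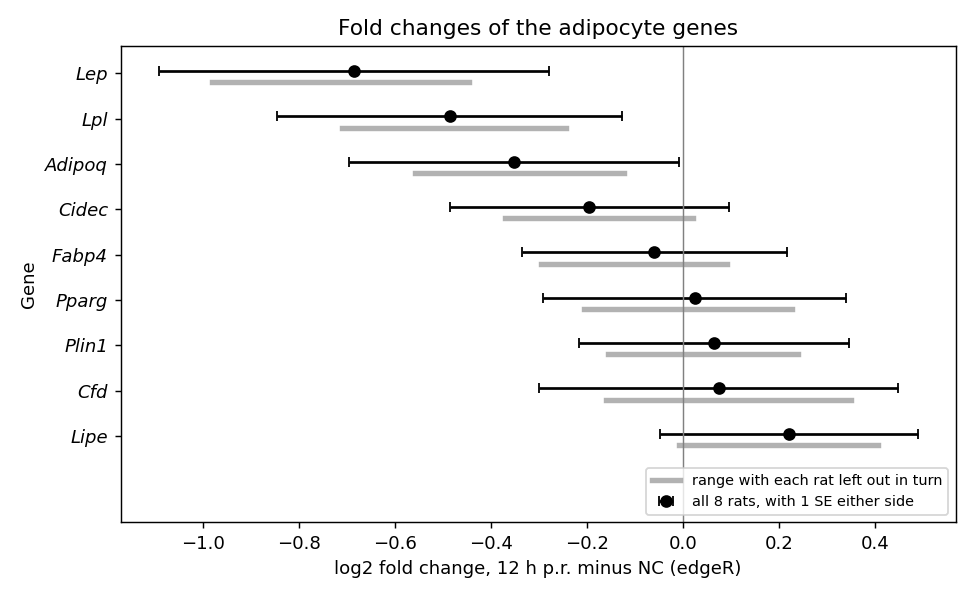
log2 fold change of the 9 tested adipocyte genes, 12 h p.r. minus NC, with black points and bars for all 8 rats and 1 SE either side, and grey bars for the range when each rat is left out in turn. Lep, Lpl and Adipoq keep a value below 0 in every fit shown, from -0.98 to -0.45 for Lep, and the grey bars of the other 6 genes cross 0.

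Because the genes shared so much of their variation between rats, the ratio of each gene to Adipoq within a rat was also compared, a measure that does not depend on library size. The choice of these ratios followed a first look at the values. The log2 ratio of Lipe to Adipoq was -2.40, -1.93, -2.19 and -2.21 in 12 h p.r. replicates 1 to 4 and -2.62, -3.05, -2.81 and -2.63 in NC replicates 1 to 4. All 4 runners were above all 4 controls, with a difference of 0.60 between the group means.

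The ratio of Plin1 to Adipoq was also higher in each runner, with means of -1.46 ± 0.22 in runners (SD, n = 4) and -1.91 ± 0.12 in controls. The same held for Pparg, with means of -3.84 ± 0.16 and -4.22 ± 0.07. For these 3 of 8 ratios the groups did not overlap. Of all 13936 other genes tested, 1.90% had a ratio to Adipoq that was higher in each runner and 0% one that was lower in each. Across the 8 rats Pearson's r with Adipoq was between 0.785 and 0.955 in the set, while its median over all genes was -0.01. The share over all genes is therefore not a matched background for ratios within the set. Each of the 3 had an exact two-sided permutation p of 0.0286, the smallest possible, and 0.0762 after Benjamini-Hochberg adjustment over the 8 ratios, so none passed 0.05.

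The ratios of Fabp4, Cfd and Cidec to Adipoq had differences of 0.36, 0.38 and 0.19, and the groups overlapped. That of Lpl to Adipoq differed by only -0.07, and that of Lep by -0.33, with an adjusted permutation p of 0.171. These differences moved when 1 rat was left out, to 0.23 for Fabp4 without 12 h p.r. replicate 2, to 0.23 for Cfd and 0.078 for Cidec without NC replicate 2, to 0.11 and 0.29 for Cidec without 12 h p.r. replicate 4 and NC replicate 1, and to -0.21 for Lep without NC replicate 1. Among all 36 pairs of the 9 genes, 10 had ratios that did not overlap between the groups, beside 5.24% of all 97113016 pairs of the genes tested. The share over all pairs was not matched to the set in how closely genes vary together. Of the 10 pairs, 9 set Lipe, Plin1 or Pparg against Adipoq, Lep or Lpl, and the tenth was Cidec against Lipe. The widest difference was between Lep and Lipe, at -0.92 for Lep over Lipe. After adjustment over the 36 pairs, which share genes, the exact permutation p of each of the 10 was 0.103. The part that muscle, macrophages or vessels of the samples have in these ratios was not tested.

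**Figure D4:**
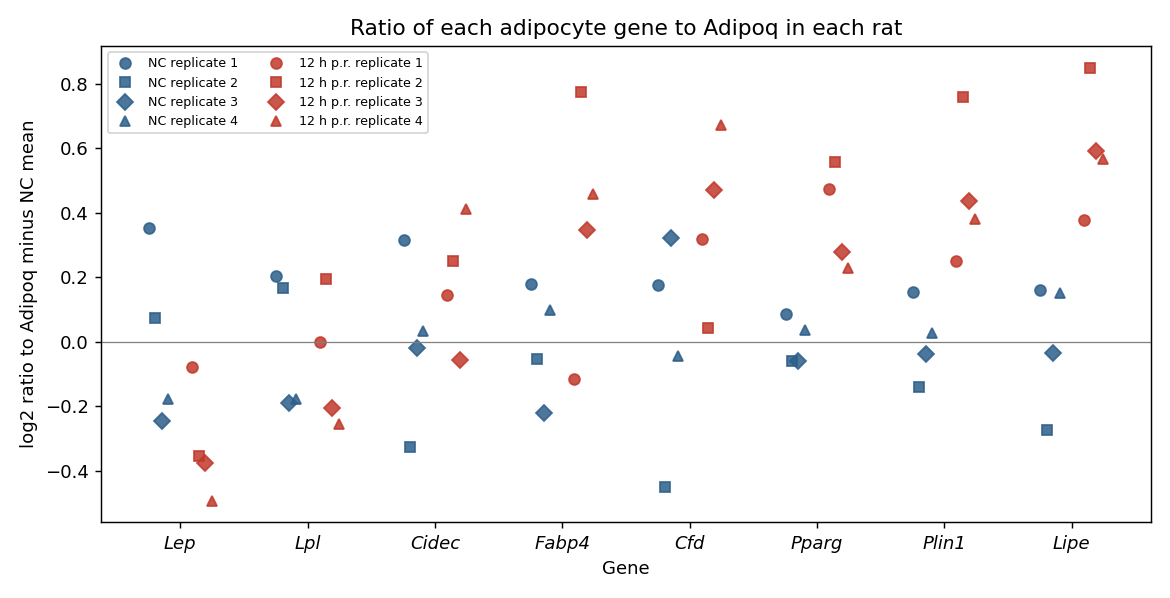
log2 ratio of each adipocyte gene to Adipoq in each rat, shown relative to the mean of the NC rats, with NC rats in blue, 12 h p.r. rats in red and 1 symbol per replicate number. For Pparg, Plin1 and Lipe every red point lies above every blue point, with a difference in group means of 0.38, 0.46 and 0.60.

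Across the 8 rats the other 8 tested genes of the set rose and fell with Adipoq. On the log2(CPM + 0.5) scale Pearson's r with Adipoq was 0.955 for Lep, 0.948 for Lpl, 0.922 for Cidec, 0.920 for Pparg, 0.880 for Plin1, 0.846 for Fabp4, 0.840 for Cfd and 0.785 for Lipe. Exact permutation p-values over all 40320 pairings of the 8 rats, adjusted over the 8 relations, ranged from 0.00119 for Lpl to 0.0186 for Lipe. Spearman's rho was between 0.738 for Cfd and 0.905 for Lep, Plin1, Lpl and Pparg, with adjusted exact permutation p-values from 0.00913 to 0.0458. The relation was also computed with the group means removed, where r was between 0.882 for Fabp4 and 0.979 for Pparg. This takes out only the difference between the groups. No batch is given in the labels, so none could be taken into account.

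The relation was computed again without 2 runners. Without 12 h p.r. replicates 2 and 4, the rats farthest from the median of Adipoq, r was 0.936 for Lpl, 0.836 for Pparg, 0.829 for Lep, 0.823 for Plin1 and 0.818 for Fabp4. It was 0.729 for Cidec, 0.633 for Lipe and 0.553 for Cfd. Unadjusted exact permutation p-values over the 6 rats were 0.106, 0.160 and 0.240 for these 3 genes, so their relation did not pass 0.05 without those 2 rats. For the other genes they were between 0.0139 for Lpl and 0.0444 for Plin1. Unlike the p-values of the 8 rats, those of the 6 rats were not adjusted over the 8 relations. They do not show that any relation would pass 0.05 after adjustment.

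Ranked by r with Adipoq among 13936 genes, Lep stood at 7, Lpl at 10, Cidec at 34, Pparg at 40, Plin1 at 82, Fabp4 at 142, Cfd at 155 and Lipe at 305. The median r of all genes was -0.01, and 61 genes, or 0.438%, reached 0.9. The 10 genes outside the set with the highest r were Mrap, Aco1, Dgat2, Pxmp2, Vps4a, Nrg4, Chrdl1, Bcar3, Sycp3 and Mrps7. Mrap, a partner of the melanocortin receptor for corticotropin that adipocytes express, led them with an r of 0.979 and a rho of 0.833. Aco1, an iron-regulated aconitase, followed at 0.966 (rho of 0.929). Dgat2, which performs the last step of triglyceride synthesis, was the third at 0.966 (rho of 0.952). The tenth, Mrps7, had an r of 0.946. Over 8 rats such values describe likeness only.

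**Figure D5:**
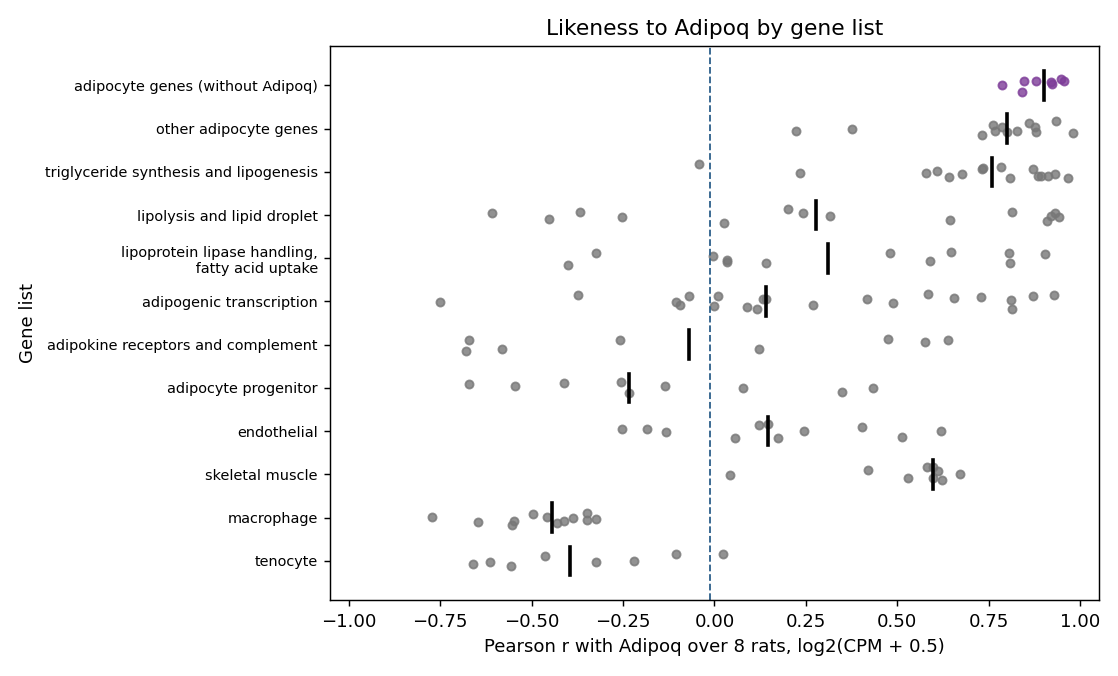
Pearson's r with Adipoq over 8 rats for each tested gene of 12 gene lists, on the log2(CPM + 0.5) scale, with black bars at the list medians and a dashed line at the median of all genes tested. The genes of the adipocyte set, in purple, lie between 0.785 and 0.955, and the macrophage markers lie below 0 with a median of -0.44.

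No relation to markers of the other cells of the tissue passed the adjusted threshold. There were 36 relations between the 9 genes and the mean log2 levels of the endothelial, skeletal muscle, macrophage and tenocyte markers. Of them, 0 had an adjusted exact permutation p under 0.05 and 3 an unadjusted one. These 3 were Plin1, Fabp4 and Lipe with the muscle markers, with r of 0.737, 0.716 and 0.712 and rho of 0.667, 0.714 and 0.571. Their adjusted exact permutation p was 0.372. Without the 2 rats farthest in muscle markers, 12 h p.r. replicate 3 and NC replicate 4, these r were 0.471, 0.485 and 0.307. For the other 6 genes r with the muscle markers was between 0.430 and 0.690, and between 0.454 and 0.728 without those 2 rats. With the tenocyte markers r was between -0.56 for Fabp4 and -0.32 for Cidec, and without the same 2 rats between -0.84 for Lep and Lpl and -0.39 for Cfd. With the endothelial markers r was between 0.200 for Lpl and 0.538 for Lipe, and without 12 h p.r. replicate 1 and NC replicate 4 between 0.256 for Lpl and 0.867 for Lipe. With the macrophage markers r was between -0.69 for Lipe and -0.29 for Lep, and without 12 h p.r. replicate 3 and NC replicate 2 between -0.40 for Lipe and 0.137 for Lep.

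Other genes of the adipocyte were given by lists. Of 13 further adipocyte genes tested, 0 passed the adjusted threshold, 8 had a fold change above 0 and 5 below it, and their median was 0.04. Their median r with Adipoq was 0.801. The smallest unadjusted p-values were those of Adrb3, the β3-adrenergic receptor of fat, with a log2 fold change of 1.49 ± 0.50 and an adjusted p of 0.443, Acvr1c with 0.81 ± 0.31 and 0.478, and Mrap with -0.51 ± 0.37 and 0.697 (edgeR). Adrb3 had only 280 reads in all 8 rats. Pearson's r with Adipoq was 0.223 for Adrb3, 0.376 for Acvr1c and 0.979 for Mrap.

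For triglyceride synthesis and lipogenesis, 16 genes were tested, 0 were called, 11 had a fold change below 0 and the median was -0.18. The smallest p-values belonged to Pck1, which supplies glycerol phosphate, with 0.79 ± 0.40, to the desaturase Scd2 with -0.39 ± 0.22 and to the citrate lyase Acly with -0.65 ± 0.38, with adjusted p-values of 0.577, 0.607 and 0.625 in edgeR's test. The median r of this list with Adipoq was 0.760. Among 14 genes of lipolysis and the lipid droplet, 0 were called and the median was -0.09. Plin2, the droplet coat found in most cell types, had a log2 fold change of 0.31 ± 0.10 and an adjusted p of 0.434. Plin3 had 0.24 ± 0.11 and Hilpda, an inhibitor of the lipase encoded by Pnpla2, 0.45 ± 0.27.

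Among the 12 tested genes that handle lipoprotein lipase or take up fatty acids, 0 were called and the median was -0.05. Lmf1, a chaperone that lipoprotein lipase needs to fold, had means of 13.5 ± 0.774 CPM at 12 h p.r. and 9.85 ± 1.20 CPM in NC rats. Its groups did not overlap, as in 6.07% of all genes tested, and its log2 fold change was 0.45 ± 0.13 with an adjusted p of 0.432. Angptl4, which inactivates lipoprotein lipase, had means of 39.7 ± 33.7 CPM at 12 h p.r. and 9.29 ± 3.46 CPM in NC rats, a log2 fold change of 2.1 ± 0.63 and an adjusted p of 0.434. The third smallest p-value was that of the transporter Slc27a1, with 0.36 ± 0.21.

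For adipogenic transcription, 21 genes were tested, 0 were called and the median was 0.02. In 6.07% of all genes tested the groups did not overlap by CPM, and in this list 1 gene separated in each direction. Klf4 was lower in each runner than in each control, with a log2 fold change of -0.53 ± 0.16 and an adjusted p of 0.434 (edgeR). Rxra, the partner of PPARγ on DNA, had 0.52 ± 0.18 and an adjusted p of 0.437. Ppargc1a was higher in each runner than in each control, with 1.88 ± 0.72 and an adjusted p of 0.478, with 182 reads in all. Of the 8 tested receptors of adipokines and complement genes, 0 were called and the median was -0.05. Cdh13, which binds adiponectin on vessels and muscle, was higher in each runner at 0.27 ± 0.09, with an adjusted p of 0.446, Adipor1 had 0.14 ± 0.09 and Cfp -0.28 ± 0.19.

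Of the 7 genes found from a list of brown fat, 4 passed the filter and 0 were called. Ucp1, the uncoupling protein of brown adipocytes, had 2 reads over the 8 rats, Zic1 had 1 and Elovl3 had 9, all under the filter. The other 4 were read more often, with 982 reads for Prdm16, 1633 for Cpt1b, 2148 for Kcnk3 and 4753 for Ebf3, as was Cidea of the adipocyte list, also known from brown fat, with 1133. The smallest p-values among these 4 were those of Kcnk3, with a log2 fold change of 0.59 ± 0.29, Ebf3 with -0.11 ± 0.08 and Prdm16 with 0.10 ± 0.14. Of 9 tested markers of adipocyte progenitors, 0 were called and the median was -0.18. F3 was lower in each runner, at -0.66 ± 0.16 with an adjusted p of 0.399 (edgeR), Pi16 had -0.58 ± 0.20 and Icam1 0.18 ± 0.12. F3 was the only gene of the 9 whose groups did not overlap, beside 6.07% of all genes tested. The median r of the progenitor markers with Adipoq was -0.23.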

How the data were processed

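RNA-seq libraries of 8 rats, 4 per group by their labels, were analysed. The authors used HISAT2 2.1.0 for alignment to Rnor_6.0 and featureCounts 1.6.3 for counting, and deposited raw counts per gene and rat. They also deposited FPKM values, in which counts are divided by gene length and by 1 size factor per rat. Whether counting used the strand, and how reads matching several genes were treated, is not given in the sources used here. A table of the authors' own comparison, with fold changes and p-values, was not used.

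Counts were filtered with filterByExpr and scaled by TMM in edgeR 4.0.16, and its quasi-likelihood test compared the groups. The SE of a fold change was derived from this test, as the absolute log2 fold change over the square root of its F statistic. The p-values of all 13937 genes were adjusted by the Benjamini-Hochberg method. Levels were compared between genes only in FPKM. Single-gene permutation tests and correlations used log2(CPM + 0.5). In simulated data with 200 genes drawn at random and changed, edgeR recovered 44 of 88 changed 2-fold and 94 of 112 changed 4-fold. Of its 143 calls, 138 were true. DESeq2 recovered 63 and 99, with 162 of 193 calls true. The changed genes were not chosen to match the set, so these shares do not give the power for it. DESeq2 1.42.0, limma 3.58.1, other scalings and filters, a replicate block and a muscle covariate were alternatives.

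The 10 genes were those of the set. From each further list, genes past the threshold and up to 3 with the smallest unadjusted p were named, with the 10 genes most like Adipoq. Members and lists were chosen with earlier results of these data known. Other brown fat genes and Cidea were named after their values were seen. Apoc1 and Cfb, with 2 identifiers each, and Cd36, Dio2, Pecam1, Myh2 and Myh4, not found by name, were left out. Wisp2 was found under its other name Ccn5.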

Additional observations from a re-analysis of the deposited data

How the results depend on the processing

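No adipocyte gene was called in either direction at an adjusted p under 0.05 in any of the 17 alternative fits, where the lowest adjusted p was 0.515. With all 8 rats, 0 had an unadjusted p under 0.05, while Lep had one of 0.0444 in edgeR without 12 h p.r. replicate 1, at a log2 fold change of -0.98. Over all genes the number of calls moved from 1 to 96 with DESeq2. Of 153 fold changes of the 9 genes under an alternative, 128 kept their direction and 25 reversed, all in the 6 genes whose fold changes lay between -0.20 and 0.22. For Pparg the value was -0.064 and -0.068 in the limma fits of log2(FPKM + 1) and of log2(FPKM + 0.1), -0.046 with the replicate block and -0.032 with muscle markers as a covariate. For Cfd these were -0.075, -0.076, -0.051 and -0.029, and for Plin1 -0.012 with the muscle covariate. The causes were not tested. Leaving out each rat in turn gave -0.16 to 0.24 for Plin1, -0.30 to 0.092 for Fabp4, -0.37 to 0.022 for Cidec, -0.21 to 0.23 for Pparg, -0.0074 to 0.41 for Lipe and -0.16 to 0.35 for Cfd. The difference in the log2 ratio of Lpl to Adipoq ranged from -0.154 to 0.0015, the latter without NC replicate 1, and those of the other 7 genes kept their sign.

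Replicate numbers are not stated to pair rats of the 2 groups, and the deviations of same-numbered rats had correlations of 0.075, -0.20, 0.13 and 0.090. With the replicate block, edgeR called 0 adipocyte genes and 0 of all genes, with 549 higher and 425 lower at an unadjusted p under 0.05. The SE of 0.27 to 0.41 on the log2 scale, at 360 or more reads of each tested gene in each rat, limits how small a difference could be shown.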
